A study of Mus musculus with 20 samples.

Results

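Transcript levels of 9 regulators that act between TNF family receptors and NF-kB were followed through 7 groups of mouse pre-B cells: Tnfaip3 (A20), Tnip1, Traf1, Traf2, Traf3, Birc2, Birc3, Cflar and Map3k8. Every probe set of the array that names exactly 1 of these genes was taken. There were 15 such probe sets among 44200, and they cover 8 of the 9 genes. Traf3 was not analysed here. Where a gene has several probe sets, it is represented by the one with the highest mean level in the cell lines.

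The proteins work as switches and brakes on the same signalling step. TRAF2 and TRAF3 dock on receptors of the TNF family, and TRAF2 carries cIAP1 and cIAP2, the ubiquitin ligases encoded by Birc2 and Birc3. These ligases pass on the TNF signal and, with TRAF3, keep the kinase NIK degraded. A20 edits ubiquitin chains and shuts the signal off, ABIN1 (Tnip1) binds A20 and helps it, c-FLIP (Cflar) blocks caspase-8 at death receptors, and TPL2 (Map3k8) is a kinase that is held by the NF-kB precursor p105 and activates the MEK and ERK kinases. In pre-B cells, breaks made by the RAG recombinase are known to activate NF-kB through the kinase ATM, and Tnfaip3, Traf1 and Birc3 are well-known NF-kB target genes in many cell types.

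The study measured v-abl-transformed pre-B cell lines and pre-B cells from bone marrow on 20 arrays. All lines had spent 48 hours in 3 uM STI571 (imatinib). This drug blocks the v-abl kinase and is known to arrest such cells and to induce RAG. Artemis- and ATM-deficient lines (n = 2, each on 2 arrays, which were averaged) make RAG breaks, cannot open the hairpin ends and lack the break-signalling kinase. The IkB-DN lines (n = 3) are Artemis-deficient and express a dominant negative IkB, which holds NF-kB inactive. Artemis-deficient lines (n = 3) also keep breaks open and carry neither an ATM nor an IkB label. Wild type lines (n = 3) make RAG breaks and can join them, and the lines labelled RAG-2-deficient (n = 3), which without that protein make no RAG breaks, were the control. The marrow cells carried an IgH transgene. Of the 4 marrow samples, 2 came from mice labelled as lacking Artemis and 2 from mice labelled as lacking RAG-1, which were their control. The sources used here do not give ages, the strain background, the promoter of the IkB construct or whether a line is a single clone.

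Several features of the samples touch the results. Across probe sets, the IkB-DN samples correlated with each other at 0.976 to 0.983, which reaches the 0.982 and 0.984 of arrays of the same Artemis- and ATM-deficient line; the other line groups lay at 0.902 to 0.948. The labels call the IkB-DN samples biological replicates, and if they are cultures of the same line, p-values that involve them are too small; other line comparisons use the same estimate of the spread and are then affected as well, as given below for Map3k8. The titles of the RAG-2-deficient lines contain the letters Bcl, which the sources used here do not explain, and the title of wild type replicate 3 contains ATM although its source is wild type. Of the genes named by the labels, Atm, Rag2 and Rag1 are given here. Artemis itself was not read, so the Artemis label was not checked. On a first probe set, the log2 level of Atm in the Artemis- and ATM-deficient lines was 5.46 ± 0.03 (SD, n = 2), and it was 6.99 ± 0.06 in IkB-DN, 6.76 ± 0.30 in Artemis-deficient, 7.43 ± 0.03 in wild type and 7.63 ± 0.02 in RAG-2-deficient lines (SD, n = 3 each). It was lower by limma's test in Artemis- and ATM-deficient than in Artemis-deficient lines (-1.30, adjusted p = 0.00337), and it was also lower against RAG-2-deficient lines, at -0.87 where Artemis alone was lacking (adjusted p = 0.0103) and -0.64 with IkB-DN (adjusted p = 0.0137). On a second probe set the Artemis- and ATM-deficient lines were at -0.48 against the Artemis-deficient lines (adjusted p = 0.346). Rag2 signals ran between 19.8 and 327 in the RAG-2-deficient lines, a range that spans the 173 to 305 of the wild type lines. Rag1 read 1232 to 1795 in Artemis-deficient marrow cells, against 5356 to 6677 in the RAG-1-deficient ones, a difference of -2.00 ± 0.22 (adjusted p = 0.0228) that puts the higher level in the samples labelled as lacking the gene. The sources used here do not say which part of either gene is deleted or which part its probe set reads, so these signals do not show whether the labels hold. The groups are called as labelled throughout, and every direction against the RAG-deficient samples rests on those labels. Rag1 read 505 to 1798 in Artemis- and ATM-deficient, 3806 to 4521 in IkB-DN and 1970 to 2825 in Artemis-deficient lines. Rag2 read 57.5 to 174, 456 to 490 and 283 to 357 in the same order. Neither gene passed limma's test against Artemis-deficient lines. Whether these groups make RAG breaks to the same extent was not tested. Of 12 pre-B markers, 10 had a probe set, and all 10 passed the filter on low values in lines and marrow alike.

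Because several members are NF-kB targets, their promoters are shown first, with the bases that match the NF-kB consensus decamer on either strand in capitals. The 250 bases upstream of the annotated starts come from RefSeq on build GRCm38.p6, written in the direction of transcription, and the 3 windows printed here lie on the minus strand. Of all 32851 such windows, 7.25% hold at least 1 match. No Map3k8 window was read. Among the other members, 10 windows of 8 genes were read, and 3 of them, of Tnfaip3, Tnip1 and Traf3, hold one. The first 2 of these are printed because both genes are described below, and Birc3 because its level was lower with the dominant negative IkB. The Tnfaip3 window at chr10:19015411-19015660 has separate matches whose first bases lie 125 and 12 bases before the start, while another annotated Tnfaip3 start has none. The Tnip1 window at chr11:54962941-54963190 has overlapping matches that begin 58, 57 and 56 bases before the start. The Birc3 window at chr9:7873171-7873420 has no match, which says only that these letters are not in this window.
Tnfaip3: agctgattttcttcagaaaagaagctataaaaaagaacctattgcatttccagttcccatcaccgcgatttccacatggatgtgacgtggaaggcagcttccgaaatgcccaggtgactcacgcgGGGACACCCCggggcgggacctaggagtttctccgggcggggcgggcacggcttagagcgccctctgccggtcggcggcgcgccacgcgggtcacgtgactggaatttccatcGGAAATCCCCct
Tnip1: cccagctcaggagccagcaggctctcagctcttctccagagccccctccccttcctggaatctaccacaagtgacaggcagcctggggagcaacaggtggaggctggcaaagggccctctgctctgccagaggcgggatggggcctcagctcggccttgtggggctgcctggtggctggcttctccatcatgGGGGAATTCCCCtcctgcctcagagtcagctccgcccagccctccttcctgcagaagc
Birc3: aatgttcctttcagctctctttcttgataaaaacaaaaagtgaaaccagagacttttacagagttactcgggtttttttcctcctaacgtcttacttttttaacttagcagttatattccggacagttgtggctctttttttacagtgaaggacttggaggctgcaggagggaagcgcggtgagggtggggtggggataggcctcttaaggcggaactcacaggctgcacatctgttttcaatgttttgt

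Tnfaip3 rose in Artemis-deficient lines on both of its probe sets. Its signal on the representative probe set was 145 and 225 in the Artemis- and ATM-deficient lines, 325, 278 and 244 in the IkB-DN lines, 456, 408 and 460.2 in the Artemis-deficient lines, 325, 252 and 154 in the wild type lines, against 141, 159.98 and 106 in the RAG-2-deficient lines. The Artemis-deficient lines stood above all other line samples, and the IkB-DN lines were the only other group with every sample above the RAG-2-deficient range. The groups therefore run from Artemis-deficient to IkB-DN, wild type, Artemis- and ATM-deficient and RAG-2-deficient lines, and after the first step each group overlaps its neighbour in that order. On the log2 scale of signal plus a pseudocount of 6, Tnfaip3 averaged 8.80 ± 0.10 in Artemis-deficient lines, against 7.13 ± 0.29 with RAG-2 lacking (SD, n = 3 each). The rise was 1.67 ± 0.25 (SE), or 3.19-fold, with an adjusted p of 0.0077 in limma's fit across all probe sets. Here, as in all bulk samples, fewer cells with the transcript and less of it per cell cannot be told apart. The pseudocount makes a fold change of a low signal look smaller than it is.

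A second probe set of Tnfaip3, on which signals were lower, gave the same order. It read 38.2 and 59.8 in the Artemis- and ATM-deficient lines, 78.9, 68.0 and 71.1 in the IkB-DN lines, 118, 151 and 94.3 in the Artemis-deficient lines, 72.1, 73.9 and 47.7 in the wild type lines, against 28.5, 50.3 and 23.9 in the RAG-2-deficient lines. Across the 14 line samples, the readings of the 2 probe sets correlated at 0.940. Its rise in Artemis-deficient over RAG-2-deficient lines was 1.69 ± 0.26 (adjusted p = 0.00952). The rise in Artemis-deficient lines on the representative probe set passed under each of 16 alternatives, at 1.52 to 1.80 with adjusted p between 0.00537 and 0.0348.

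Tnfaip3 also rose in IkB-DN over RAG-2-deficient lines, by 1.03 ± 0.25 (adjusted p = 0.0244) and on the second probe set by 1.02 ± 0.26 (adjusted p = 0.0314). As a fold, that rise on the representative probe set was 2.05. The call was lost without RAG-2-deficient replicate 1 (1.07, adjusted p = 0.0587) or 3 (0.88, adjusted p = 0.0867) and without IkB-DN replicate 1 (0.93, adjusted p = 0.0967) or 2 (1.04, adjusted p = 0.0804). With the IkB-DN samples averaged and counted as 1, the adjusted p was 0.349.

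Tnip1, the A20 partner, had a smaller difference in the same lines. Its signal was 193 and 178 in the Artemis- and ATM-deficient lines, 258, 193 and 232 in the IkB-DN lines, 324, 280.5 and 311 in the Artemis-deficient lines, 241, 183 and 169.6 in the wild type lines, against 177, 182 and 228 in the RAG-2-deficient lines. The 3 Artemis-deficient lines were again the highest of the 14 samples, and the other groups overlapped one another. The difference of Artemis-deficient from RAG-2-deficient lines was 0.63 ± 0.16 (adjusted p = 0.0897), which missed the threshold of 0.05. Tnip1 and Tnfaip3 levels correlated at 0.75 across the 14 line samples, a description of samples that share the group differences.

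**Figure D1:**
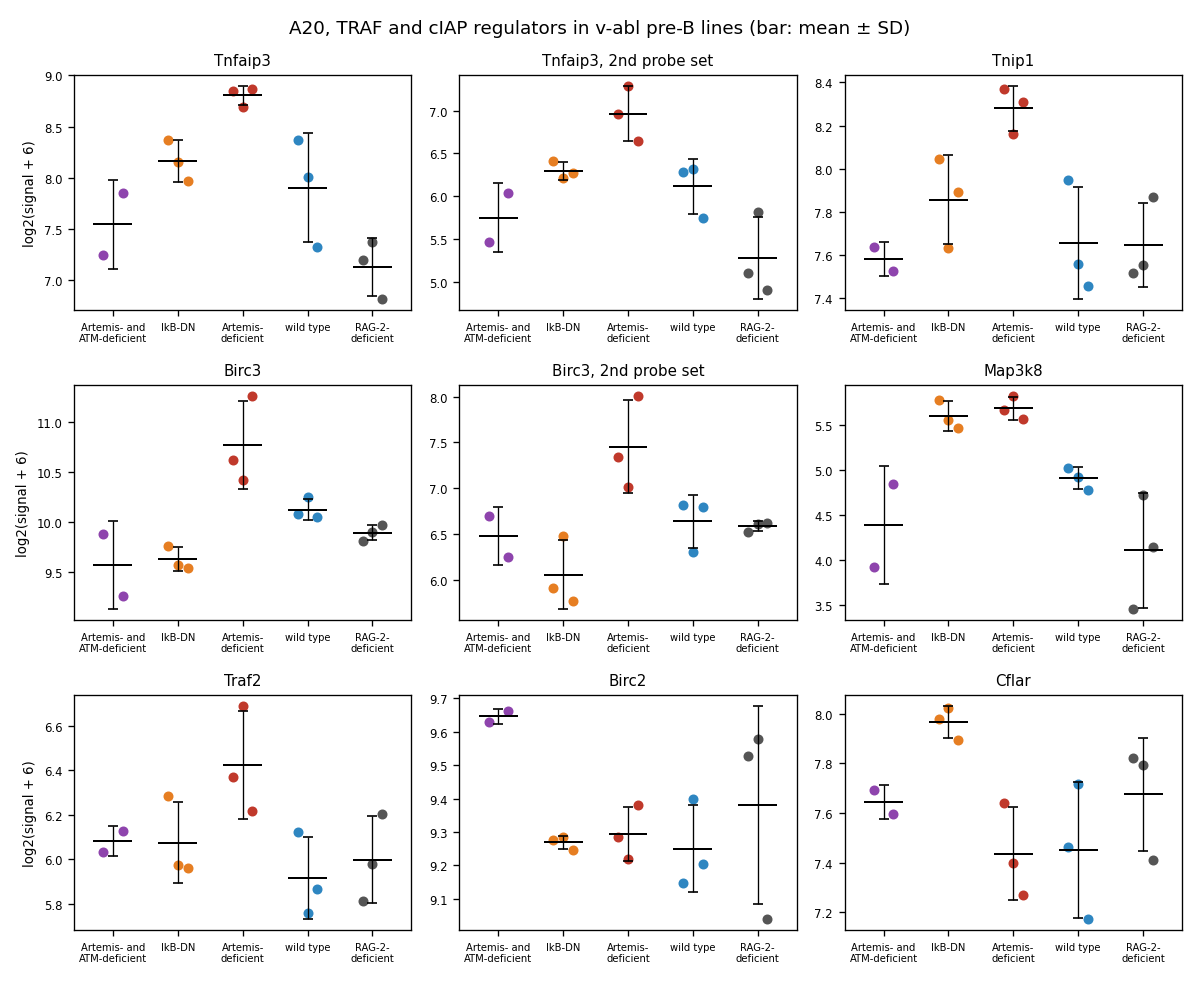
Log2 of signal plus a pseudocount of 6 on the y axis for 7 regulators in 14 samples of v-abl pre-B lines; each point is a sample, the bar is the group mean, the whisker the SD, and each panel has its own y range. Tnfaip3, Tnip1 and Birc3 are highest in the 3 Artemis-deficient lines, Map3k8 is high in both Artemis-deficient and IkB-DN lines, and Birc2 and Cflar are not highest in the Artemis-deficient lines.

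Among the adaptors, Traf2 was measured in all lines and lay above the array medians of 26.8 to 27.7 in every one. It read 59.5 and 64.0 in the Artemis- and ATM-deficient lines, 72.0, 56.9 and 56.3 in the IkB-DN lines, 76.7, 97.3 and 68.3 in the Artemis-deficient lines, 63.7, 48.2 and 52.3 in the wild type lines, against 50.2, 57.0 and 67.7 in the RAG-2-deficient lines. The Artemis-deficient lines lay just above the RAG-2-deficient range (68.3 against 67.7 at the nearest), with a difference of 0.43 ± 0.17 (adjusted p = 0.296). Traf1, an NF-kB target and a TRAF without a RING domain, lay between 0.9 and 11.2 in the 14 line samples on one probe set, under those medians, and the cells of its other probe set were mostly empty. Traf1 was therefore not tested in the lines.

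Birc3, which encodes cIAP2, moved differently from Tnfaip3. Its signal was 938 and 606 in the Artemis- and ATM-deficient lines, 865, 756 and 741 in the IkB-DN lines, 1574, 1369 and 2453 in the Artemis-deficient lines, 1078, 1209 and 1053 in the wild type lines, against 894, 952 and 996 in the RAG-2-deficient lines. All Artemis-deficient lines exceeded every other line sample, and replicate 3 was the highest of them. Unlike Tnfaip3, the IkB-DN lines did not sit between the Artemis-deficient and the RAG-2-deficient lines: all 3 were below the RAG-2-deficient range. Birc3 averaged 9.63 ± 0.12 (log2 level, SD, n = 3) in IkB-DN lines and 10.77 ± 0.44 (SD, n = 3) in Artemis-deficient lines. In limma's fit it fell by 1.14 ± 0.20 with an adjusted p of 0.0162. A second Birc3 probe set fell by 1.40 ± 0.26 (adjusted p = 0.0218), and the readings of both correlated at 0.867 over the line samples. The call of the representative probe set was lost without Artemis-deficient replicate 1 (-1.22, adjusted p = 0.0525) and without any of the IkB-DN replicates 1, 2 and 3 (-1.21, -1.12 and -1.10, adjusted p between 0.0549 and 0.0857). With the IkB-DN samples counted as 1, the adjusted p was 0.625.

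Other differences of Birc3 came close to the threshold. Against RAG-2-deficient lines, the Artemis-deficient lines were at 0.88 ± 0.20 (adjusted p = 0.0605), which passed without Artemis-deficient replicate 2 (1.05, adjusted p = 0.0459). The Artemis- and ATM-deficient lines were at -1.20 ± 0.22 against the Artemis-deficient lines (adjusted p = 0.0575). That difference passed without Artemis-deficient replicate 2 (-1.37, adjusted p = 0.0409) and without Artemis- and ATM-deficient replicate 1 (-1.51, adjusted p = 0.0387), where the lone line is assumed to vary like the other groups. The wild type lines lay just above the RAG-2-deficient lines without overlap, at 0.23 ± 0.20 (adjusted p = 0.711), and the IkB-DN lines at -0.27 ± 0.20 (adjusted p = 0.434).

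Birc2, the neighbouring gene of Birc3 in the genome and the source of cIAP1, did not share that pattern. It read 786 and 804 in the Artemis- and ATM-deficient lines, 614, 618 and 601 in the IkB-DN lines, 618, 589.96 and 660.4 in the Artemis-deficient lines, 561, 669 and 584 in the wild type lines, against 731, 758 and 519.7 in the RAG-2-deficient lines. The Artemis- and ATM-deficient lines were the highest samples, with a difference of 0.35 ± 0.15 from Artemis-deficient lines (adjusted p = 0.479). Artemis-deficient and RAG-2-deficient lines overlapped, at -0.09 with a 95% interval of -0.38 to 0.21, and no comparison of Birc2 passed the test. Birc2 and Birc3 correlated at -0.23 across the 14 line samples.

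Map3k8, the TPL2 kinase, was a low transcript that rose in Artemis-deficient and in IkB-DN lines. Its signal was 9.2 and 22.9 in the Artemis- and ATM-deficient lines, 49.0, 41.2 and 38.2 in the IkB-DN lines, 44.7, 50.7 and 41.4 in the Artemis-deficient lines, 26.6, 24.5 and 21.6 in the wild type lines, against 5.0, 20.4 and 11.7 in the RAG-2-deficient lines. Only the Artemis-deficient and IkB-DN samples reached the median of their array, so these groups alone carried the probe set past the filter. The rise in Artemis-deficient over RAG-2-deficient lines was 1.58 ± 0.31 (adjusted p = 0.0365), and with no filter the adjusted p was 0.0468. The rise in IkB-DN over RAG-2-deficient lines was 1.49 ± 0.31 (adjusted p = 0.0125), and with no filter the adjusted p was 0.0171. Between the IkB-DN and the Artemis-deficient lines the signals overlapped, and the difference was -0.08 ± 0.31 with a 95% interval of -0.77 to 0.60 (adjusted p = 0.922). This interval leaves room for a change of either sign.

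The Map3k8 calls depended on single samples and on the fit. Of 14 alternatives, 8 ended the call in Artemis-deficient against RAG-2-deficient lines. It was lost with a pseudocount of 1 (1.98, adjusted p = 0.0511), when the other groups were left out of the fit (adjusted p = 0.178) and with the IkB-DN samples counted as 1 (adjusted p = 0.11), although no IkB-DN line is in that comparison. It was also lost without RAG-2-deficient replicate 1, the lowest sample (1.25, adjusted p = 0.113), without RAG-2-deficient replicate 3 (1.60, adjusted p = 0.0838) and without Artemis-deficient replicate 1, 2 or 3 (1.59, 1.51 and 1.64, adjusted p = 0.0843, 0.109 and 0.0676). The rise in IkB-DN lines was lost without IkB-DN replicate 1 (1.40, adjusted p = 0.0563) and with the IkB-DN samples counted as 1 (adjusted p = 0.286). In Artemis- and ATM-deficient lines Map3k8 differed by -1.30 ± 0.35 from Artemis-deficient lines, where the groups did not overlap and the test was not passed (adjusted p = 0.209).

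Cflar, the c-FLIP gene, has 5 probe sets, and these did not move as a unit. On the representative one it read 201 and 188 in the Artemis- and ATM-deficient lines, 246, 254 and 232 in the IkB-DN lines, 193, 163 and 148 in the Artemis-deficient lines, 171, 204 and 138 in the wild type lines, against 219.9, 216 and 164 in the RAG-2-deficient lines. The IkB-DN lines were the highest of the 14 samples, at 0.53 ± 0.16 over Artemis-deficient lines (adjusted p = 0.111) and 0.29 ± 0.16 over RAG-2-deficient lines (adjusted p = 0.287). A weaker probe set read 69.4, 60.4 and 60.5 in the IkB-DN lines, 20.8, 38.4 and 28.1 in the Artemis-deficient lines, against 32.6, 28.4 and 25.2 with RAG-2 lacking. Its difference of IkB-DN from RAG-2-deficient lines was 1.00 ± 0.30 (adjusted p = 0.0533) and that from Artemis-deficient lines 1.01 ± 0.30 (adjusted p = 0.0993). A further probe set went the other way against the control, with 38.2, 35.9 and 31.8 in IkB-DN lines against 62.4, 45.7 and 40.8 with RAG-2 lacking (-0.41 ± 0.19, adjusted p = 0.186). Over the 14 line samples, correlations between pairs of Cflar probe sets ran between -0.22 and 0.77, and no comparison of any of them passed the test.

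Counted together, the calls rested on a few genes in each comparison. For Artemis-deficient against RAG-2-deficient lines, 3 of the 13 member probe sets tested were called, all higher (both of Tnfaip3 and that of Map3k8), where 1.14% of all probe sets were called. With no filter on low values, which the Map3k8 probe set passed only through the groups where it is high, 3 of 14 were called beside 0.595% of all. The 13 had a median difference of 0.43, against -0.01 over all probe sets tested, and 8 had an unadjusted p under 0.05. The share of all probe sets under that unadjusted level was not counted in any comparison. For IkB-DN lines against the same control, 3 of 13 were called, all higher and again of Tnfaip3 and Map3k8, where 9.90% of all probe sets were called (3 of 14 beside 4.98% with no filter). The 13 had a median of 0.22, against -0.02 over all. The control samples are common to both comparisons.

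The wild type and the Artemis- and ATM-deficient lines had no member called against the control. In wild type against RAG-2-deficient lines limma called 0 of 13 member probe sets (0.791% of all probe sets were called, and 3 of the 13 had an unadjusted p under 0.05). Tnfaip3 was at 0.77 ± 0.25 (adjusted p = 0.214) and Map3k8 at 0.80 ± 0.31 (adjusted p = 0.311), with no overlap for Map3k8. In Artemis- and ATM-deficient against RAG-2-deficient lines limma called 0 of 13 (0.668% of all were called, and 0 of the 13 had an unadjusted p under 0.05). Tnfaip3 was there at 0.42 ± 0.28 (adjusted p = 0.626) and Map3k8 at 0.28 ± 0.35 (adjusted p = 0.826), and the groups overlapped for both.

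**Figure D2:**
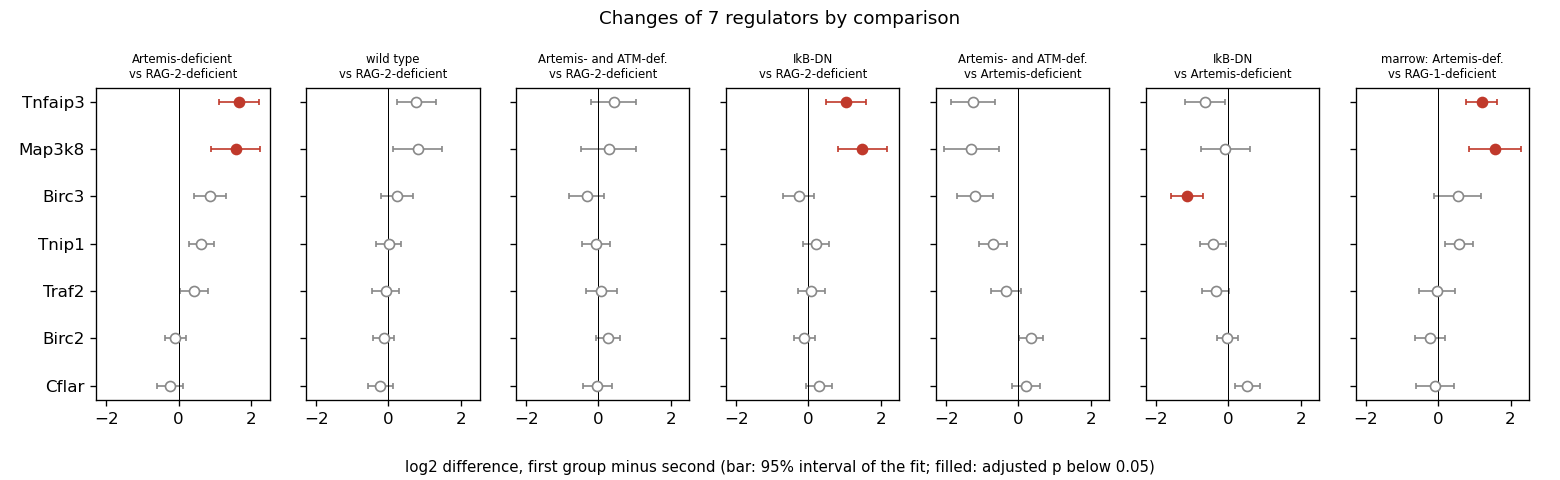
Log2 differences of 7 regulators on the x axis, first named group minus the second, in 6 comparisons of lines and 1 of marrow; points are the fitted differences, bars their 95% intervals, and filled points passed an adjusted p below 0.05. Tnfaip3 and Map3k8 pass in Artemis-deficient and IkB-DN against RAG-2-deficient lines and in marrow, and Birc3 passes, below 0, in IkB-DN against Artemis-deficient lines.

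The direct comparisons with the Artemis-deficient lines ask which of these levels differ without ATM or with NF-kB blocked. In Artemis- and ATM-deficient against Artemis-deficient lines, limma called 0 of 13 member probe sets, where 0.247% of all probe sets were called. Of the 13, 7 had an unadjusted p under 0.05. These were both of Tnfaip3, both of Birc3 and those of Tnip1 and Map3k8, all lower, and that of Birc2, which was higher. The difference of Tnfaip3 was -1.26 ± 0.28 (adjusted p = 0.124) and that of Tnip1 -0.70 ± 0.18 (adjusted p = 0.187), and for both every Artemis- and ATM-deficient line lay below every Artemis-deficient line. In IkB-DN against Artemis-deficient lines, 2 of 13 were called, both lower and both of Birc3, where 2.05% of all probe sets were called. Tnfaip3 was at -0.64 ± 0.25 (adjusted p = 0.197) and Tnip1 at -0.42 ± 0.16 (adjusted p = 0.182), again without overlap; when no other group was in the fit, the adjusted p of Tnfaip3 was 0.0478. The share of all probe sets whose groups do not overlap was not counted in either comparison. Whether loss of ATM and the IkB construct differ in their effect was not tested.

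Set against wild type lines, which can close the breaks, the Artemis-deficient lines had positive differences for 11 of the 13 member probe sets, with a median of 0.51 against -0.01 over all. limma called 0 of them (0.509% of all probe sets were called), and 7 had an unadjusted p under 0.05. Tnfaip3 was at 0.90 ± 0.25 (adjusted p = 0.149), Tnip1 at 0.62 ± 0.16 (adjusted p = 0.115), Birc3 at 0.65 ± 0.20 (adjusted p = 0.192), Map3k8 at 0.77 ± 0.31 (adjusted p = 0.336) and Traf2 at 0.51 ± 0.17 (adjusted p = 0.235). For these 5 genes every Artemis-deficient line lay above every wild type line. How many of all probe sets separate in this way was not counted.

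In the marrow cells the members that passed the test were Tnfaip3 and Map3k8. Tnfaip3 read 699 and 689.8 in Artemis-deficient marrow cells, against 264 and 332 in RAG-1-deficient marrow cells. It averaged 9.46 ± 0.01 in Artemis-deficient and 8.26 ± 0.23 in RAG-1-deficient marrow cells (log2 of signal plus 11, SD, n = 2 each) and rose by 1.20 ± 0.19 (SE, adjusted p = 0.0293, limma). The second probe set, at 130.2 and 85.1 in Artemis-deficient against 24.9 and 23.7 in RAG-1-deficient marrow cells, rose by 1.72 ± 0.31 (adjusted p = 0.04). Map3k8 read 88.1 and 81.0 in Artemis-deficient marrow cells, against 24.9 and 17.4 in RAG-1-deficient ones, and rose by 1.58 ± 0.31 (adjusted p = 0.048). Map3k8 and the second Tnfaip3 probe set reached the array median only in the Artemis-deficient cells, so that group alone carried them past the filter; with no filter their adjusted p was 0.0424 (Map3k8) and 0.0288 (Tnfaip3). The calls were 3 of 14 member probe sets tested, where 2.51% of all were called, and 3 of 15 with no filter, where 2.35% of all were called. Map3k8 was lost with a pseudocount of 1 (1.97, adjusted p = 0.0579), and none of the 3 was called with no intensity trend in the fit. None of the 3 was called without RAG-1-deficient replicate 1 or without replicate 2, where the lone sample is assumed to vary like the other group: without replicate 1, Tnfaip3 was at 1.04 (adjusted p = 0.227) and Map3k8 at 1.75 (adjusted p = 0.242), and without replicate 2 they were at 1.36 (adjusted p = 0.0877) and 1.41 (adjusted p = 0.271).

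Traf1 could be measured in the marrow cells. One probe set read 151 and 149 in Artemis-deficient against 45.9 and 68.3 in RAG-1-deficient marrow cells, and the other read 85.5 and 104 in Artemis-deficient against 35.7 and 48.1 in RAG-1-deficient marrow cells. The differences were 1.26 ± 0.27 (adjusted p = 0.0588) and 1.00 ± 0.29 (adjusted p = 0.128), neither past the threshold, with no overlap on either. The first of them was at 1.25 without Artemis-deficient replicate 1 and at 1.27 without replicate 2. In these fits the lone sample is assumed to vary like the other group. Tnip1 read 631 and 612 in Artemis-deficient against 402 and 423 in RAG-1-deficient marrow cells, a difference of 0.58 ± 0.17 (adjusted p = 0.129).

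The other regulators were not called in the marrow comparison either. Birc3 read 1916 and 1506 in Artemis-deficient against 872 and 1558 in RAG-1-deficient marrow cells (0.54 ± 0.28, adjusted p = 0.387). Its second probe set did not overlap, with 104 and 127 in Artemis-deficient against 63.5 and 102 in RAG-1-deficient cells (0.46 ± 0.29, adjusted p = 0.487). Traf2 was at -0.04 with a 95% interval of -0.54 to 0.46, Cflar at -0.10 with an interval of -0.62 to 0.43, and Birc2 at -0.22 with an interval of -0.64 to 0.19. Birc2 read 456 and 546 in Artemis-deficient against 599 and 570 in RAG-1-deficient marrow cells, lower without overlap. One Cflar probe set read 4.6 and 64.9 in Artemis-deficient against 127 and 82.9 in RAG-1-deficient marrow cells, a difference of -1.73 ± 0.67 (adjusted p = 0.256).

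**Figure D3:**
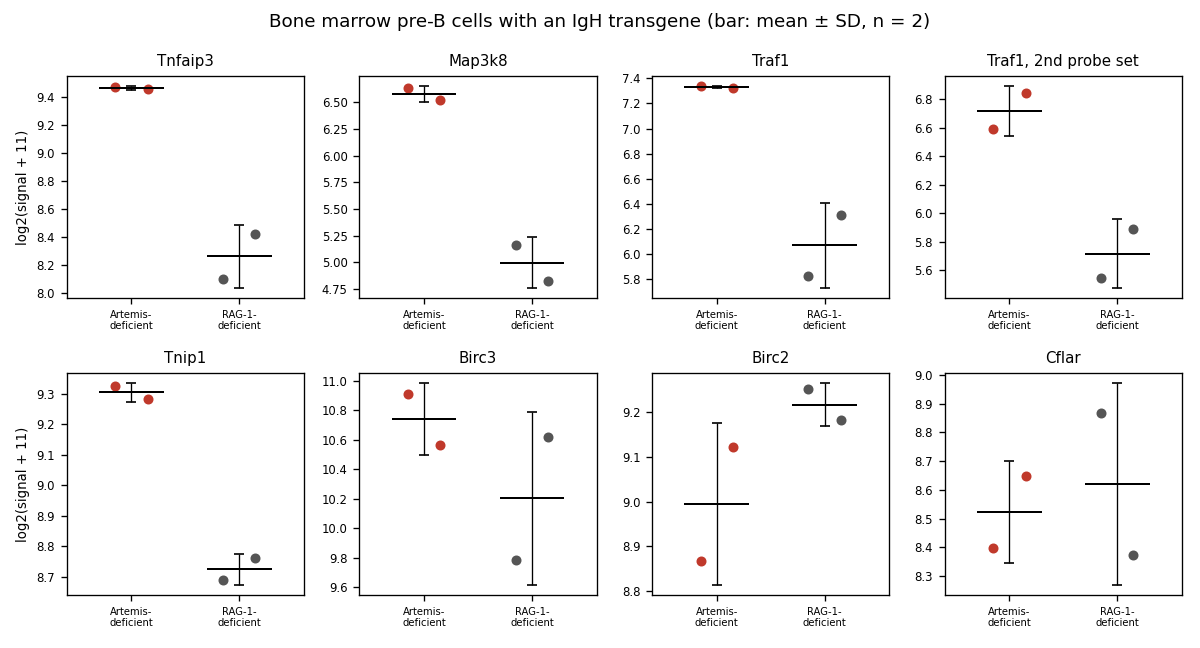
Log2 of signal plus a pseudocount of 11 on the y axis for 7 regulators in 2 Artemis-deficient and 2 RAG-1-deficient marrow samples; points are samples, bars the mean and whiskers the SD, and each panel has its own y range. The groups are apart for Tnfaip3, Map3k8, both Traf1 probe sets and Tnip1, which are higher in Artemis-deficient cells, and for Birc2, which is lower. They overlap for Birc3 and Cflar.

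Markers of other cells differed between the marrow groups and stand beside all of these marrow values. The summed signal of the 10 pre-B markers was 13598 to 19979 in Artemis-deficient and 30324 to 34518 in RAG-1-deficient marrow cells. For 7 of 8 myeloid markers with a probe set, led by S100a8, it was 45627 to 52045 in Artemis-deficient and 27496 to 39495 in RAG-1-deficient cells. For 6 dendritic cell markers it was 8246 to 9871 in Artemis-deficient and 3109 to 4559 in RAG-1-deficient cells, and for 7 T and NK cell markers 6358 to 6867 in Artemis-deficient and 3066 to 3898 in RAG-1-deficient cells. The cells thus differed in markers of several lineages. For 5 of 6 mature B cell markers it was 6108 to 7839 in Artemis-deficient and 1828 to 3488 in RAG-1-deficient cells. These markers did not move as a set. H2-Aa read 5514 to 7261 in Artemis-deficient and 911 to 2266 in RAG-1-deficient cells. Cd22 went the other way, with 374 to 475 in Artemis-deficient and 787 to 796 in RAG-1-deficient cells. Ms4a1 overlapped, and Cr2 and Fcer2a did not pass the filter. Of 6 erythroid markers, 3 had a probe set, with sums of 575 to 887 in Artemis-deficient and 1254 to 1299 in RAG-1-deficient marrow cells. Of the dendritic markers, Ccr9 read 2614 to 2973 in Artemis-deficient and 291 to 888 in RAG-1-deficient cells, and Siglech 1619 to 2623 in Artemis-deficient and 222 to 503 in RAG-1-deficient cells, while Xcr1 reached at most 2.64 in any marrow sample. Of the NK markers, Klrd1 read 2654 to 3140 in Artemis-deficient and 1592 to 2046 in RAG-1-deficient cells, Nkg7 1976 to 2426 in Artemis-deficient and 1041 to 1411 in RAG-1-deficient cells, and Ncr1 501 to 791 in Artemis-deficient and 334 to 336 in RAG-1-deficient cells. Cd4 read 392.2 to 1113 in Artemis-deficient cells and was empty in both RAG-1-deficient samples, and Cd3e was empty in both Artemis-deficient samples and in 1 RAG-1-deficient sample, with 12.8 in the other. Their part in the marrow results was not tested. In the lines these sums were far smaller than those of the pre-B markers, which lay between 23854 and 36291. The myeloid sum was 228 to 889 in Artemis- and ATM-deficient, 637 to 770.2 in IkB-DN, 137 to 353 in Artemis-deficient, 126 to 362 in wild type and 104 to 167 in RAG-2-deficient lines. Itgam alone read 126 to 781 in Artemis- and ATM-deficient and 389 to 452 in IkB-DN lines, against 5.76 to 38.5 in RAG-2-deficient lines. The T and NK sum was 18.6 to 34.3 in Artemis- and ATM-deficient, 445 to 624 in IkB-DN, 47.6 to 138 in Artemis-deficient, 32.0 to 44.2 in wild type and 190.3 to 282 in RAG-2-deficient lines. Most of the T and NK sum in IkB-DN lines was Klrd1 (419 to 599.7), while Cd3e, Cd4 and Nkg7 were empty in all 3. Their part in the results of the lines was not tested.

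Whether the change with Artemis deficiency differed between lines and marrow was tested as an interaction over both sets. In that fit the lines kept a pseudocount of 6 and the marrow cells 11, so low signals were not on the same scale. The controls also differed (RAG-2 against RAG-1 lacking), and the marrow groups differed in lineage markers. The fit cannot separate these from a difference in the change itself. limma called 0 of 12 member probe sets, where 0.461% of all probe sets were called, and 1 of the 12 had an unadjusted p under 0.05. The difference, lines minus marrow, was 0.47 ± 0.38 for Tnfaip3 (adjusted p = 0.658), with a 95% interval of -0.33 to 1.28. For Map3k8 the interval was -1.02 to 1.02 (adjusted p = 0.999), an interval that spans both signs.

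The genes around these regulators in the pathway were read from 7 lists. In Artemis-deficient against RAG-2-deficient lines limma called none of the 9 tested receptor adaptors, 11 IKK and upstream kinases, 5 genes of the TPL2 cascade, 13 ubiquitin editing genes, 6 genes of the death receptor arm and 8 TRAF-binding receptors. In all, 4 of 61 genes of the lists were called (6.56%), where 1.14% of all probe sets were. The calls lay among NF-kB subunits and inhibitors, with 4 of 9 higher and 0 lower: Nfkbid (2.28 ± 0.36), Nfkbie (2.04 ± 0.17), Relb (1.10 ± 0.18) and Nfkb2 (0.78 ± 0.17). In Artemis- and ATM-deficient against Artemis-deficient lines the same list had 2 of 9 lower, Nfkbie (-2.15 ± 0.19) and Relb (-2.04 ± 0.20), and the other 6 lists had no call. Over the lists these were 2 of 61 genes (3.28%), where 0.247% of all probe sets were called. Artemis- and ATM-deficient against RAG-2-deficient lines had no call in any of the lists, where 0.668% of all probe sets were called. A higher Nfkbie was the single call in wild type against RAG-2-deficient lines (0.96 ± 0.17) and in Artemis-deficient against wild type lines (1.08 ± 0.17). That is 1 of 61 genes (1.64%, beside 0.791% of all probe sets) and 1 of 62 (1.61%, beside 0.509%).

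In IkB-DN against Artemis-deficient lines, calls lay in 4 of the 7 lists, 8 of 62 genes in all (12.9%), where 2.05% of all probe sets were called. Here 5 of 10 NF-kB subunits and inhibitors were lower, among them Relb (-2.55 ± 0.18), Nfkbid (-2.32 ± 0.36), Nfkbie (-2.22 ± 0.17) and Nfkbia (-1.17 ± 0.18). Tank, a TRAF-binding adaptor, was lower by the test as well (-1.22 ± 0.27, 1 of 9 receptor adaptors), as was Cyld, a deubiquitinase that brakes the same pathway as A20 (-0.87 ± 0.17, 1 of 13). Casp8, the caspase that c-FLIP holds in check, was higher (1.14 ± 0.13, 1 of 6 in the death receptor arm). Against RAG-2-deficient lines, 7 of 61 genes in the lists were called (11.5%), a share near the 9.90% over all probe sets. Casp8 (1.22 ± 0.13) and Ripk3 (2.50 ± 0.50), a kinase of necroptosis, were higher, as was Map3k3 (0.80 ± 0.15), while Cyld (-0.78 ± 0.17), Rnf11 (-0.67 ± 0.16), a partner of A20, Relb (-1.45 ± 0.18) and Nfkbib (-0.60 ± 0.15) were lower. These comparisons share the IkB-DN samples. In marrow, 5 of 64 genes in the lists were called (7.81%), where 2.51% of all probe sets were. Cd40 (1.80 ± 0.26) and Tnfrsf13b (0.80 ± 0.16) were 2 of 9 TRAF-binding receptors. Nfkbie (1.64 ± 0.27), Bcl3 (1.49 ± 0.27) and Nfkbid (1.01 ± 0.18) were 3 of 10 NF-kB subunits and inhibitors. All 5 were higher in Artemis-deficient cells, and the marker sums above differ between the same samples.

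**Figure D4:**
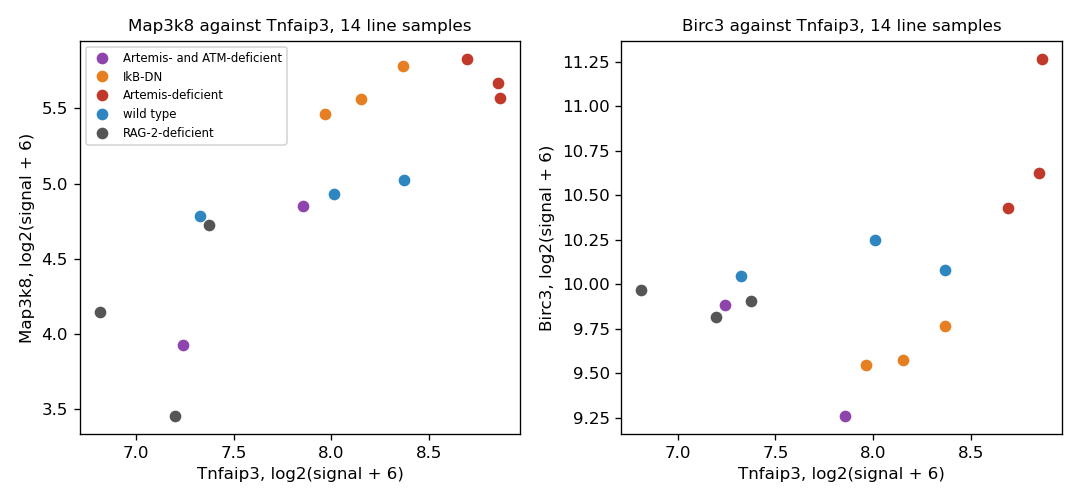
Log2 of signal plus 6 for Map3k8 (left) and Birc3 (right) on the y axes against Tnfaip3 on the x axes; each point is 1 of the 14 line samples, coloured by group. Map3k8 is higher where Tnfaip3 is higher (r = 0.85), while the IkB-DN lines have low Birc3 at an intermediate Tnfaip3 level (r = 0.52).

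For each regulator the genes with the most similar level across the 14 line samples were looked up among 9439 genes; the samples share group differences and scaling, and the correlations are descriptions. Tnfaip3 was closest to Il12a (Pearson's r = 0.86, Spearman's rho = 0.79), Map3k8 (0.85 and 0.90) and D17H6S56E-5 (0.85 and 0.87). Map3k8 was closest to Atr (0.93 and 0.91), Dusp16 (0.91 and 0.83) and Cyb561a3 (0.91 and 0.84). Birc3 was closest to Garre1 (0.91 and 0.93), Pim2 (0.90 and 0.89) and Nfkb2 (0.90 and 0.81). Tnip1 was nearest to Cherp (0.85 and 0.80), Traf2 to Rbm38 (0.87 and 0.87), Birc2 to Dcun1d5 (0.87 and 0.84) and Cflar to A830021M18Rik (0.86 and 0.85). Birc3 and Map3k8 correlated at 0.29 with each other, and Birc3 and Cflar at -0.56.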

How the data were processed

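Mouse pre-B transcripts were measured on 20 Affymetrix mouse genome arrays, read with GeneChip Operating Software per the labels. The authors deposited 1 value per probe set and array. These deposited values are log10 signals, a base inferred from the values, and 14.7% of the cells were empty. No source used here gives the summary method or the scaling. Array medians (26.8 to 27.7 in lines, 46.9 to 47.8 in marrow) differed between the sets, so each set was analysed alone, except in the interaction. Arrays have no read depth, and their number limits the precision.

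Values were returned to signals, a pseudocount (the 25th percentile, 6 in lines and 11 in marrow) was added, and log2 was taken. Empty cells stayed empty. Technical arrays, 2 for each line lacking Artemis and ATM, were averaged. A probe set was kept where at least 2 samples reached their array's median (21917 in lines, 19520 in marrow). limma 3.58.1 in R 4.3.3 (lmFit, eBayes with trend) tested the 5 line groups in a single fit (9 residual and 3.06 prior degrees of freedom), the marrow groups in another (2 and 5.40), and the interaction over both. P-values are two-sided and Benjamini-Hochberg adjusted over all probe sets of a comparison, and a call is an adjusted p below 0.05. The procedure was tested on simulated data with independent noise and no empty cells, which cannot show whether calls hold where samples are not independent.

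The members, the gene lists and the tests were chosen with earlier results of these data known. Named are all members, called genes of the lists (up to 4 a list) and the 3 genes most similar to a member, or the nearest alone. Of the probe sets, 34294 name 1 gene, 916 several and 8990 none. Alternatives changed the pseudocount, filter, scaling, trend, samples in the fit, counting of IkB-DN samples and of technical arrays, the probe sets per gene, and left out each replicate. Promoters are RefSeq's. Plots used matplotlib 3.10.9 (Python 3.11.15).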

Additional observations from a re-analysis of the deposited data

How the results depend on the processing

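Counts of called members that changed by more than 1.5 times are given first. In Artemis-deficient against RAG-2-deficient lines, the 3 calls became 1 with the filter at the 75th percentile and 1 when no other group was in the fit, and between 1 and 3 without a replicate. For IkB-DN lines against that control, the 3 became 1 with that filter, 0 with the IkB-DN samples counted as 1, and 0 to 3 without a replicate. In IkB-DN against Artemis-deficient lines, the 2 became 0 with the IkB-DN samples counted as 1 and 0 to 2 without a replicate. In Artemis- and ATM-deficient against Artemis-deficient lines, 0 became 1 with the first array of each Artemis- and ATM-deficient line and 0 to 1 without a replicate. In marrow, the 3 became 1 with the filter at the 75th percentile, 0 with no intensity trend, and 0 to 3 without a replicate. The interaction gave 0 to 1 without a replicate. The stricter filter tests fewer probe sets, and fewer samples leave a less certain spread; the cause of the other changes was not tested. Over all probe sets, the alternatives gave 81 to 276 calls for Artemis-deficient against RAG-2-deficient lines (248 as reported), 29 to 311 for wild type (172) and 43 to 155 for Artemis- and ATM-deficient lines (143) against that control, 23 to 3103 for IkB-DN lines against it (2144), 11 to 63 for Artemis- and ATM-deficient (53) and 5 to 1071 for IkB-DN (446) against Artemis-deficient lines, 6 to 182 for Artemis-deficient against wild type lines (111), 0 to 1245 in marrow (489) and 10 to 127 for the interaction (81).

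Single members were read on their representative probe set or, as an alternative, on the mean of their probe sets. Their 7 called differences were recomputed 94 times, with 67 still called and 27 not. The 57 others were recomputed 842 times, and 7 became called. A sign was read as turned only where a call was made, which did not happen; 36 uncalled values changed sign. No paired analysis was possible because the labels give the groups no shared replicate numbers. With 2 to 3 samples a group, small differences were not detectable, and Traf1 in the lines lay under the filter.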
